A study of Mus musculus with 11 samples.

Results

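The DDC diet, fed for 10 days, was compared with chow in cholangiocytes, the epithelial cells that line the bile ducts, across all genes with FPKM of 1 or more in at least 3 libraries. The members were the 4 libraries labelled DDC and the 4 labelled Control, 8 of the 11 libraries of the series. All were from livers of wildtype C57BL/6 male mice aged 14 to 16 weeks. Control mice ate chow throughout, and DDC mice ate the diet for 10 days and were sampled at its end. The other 3 libraries, from mice returned to chow for 15 days after the diet, entered the model only through the shared estimate of spread. Cells of the dissociated liver were caught with magnetic beads against EpCAM, an epithelial surface protein, and passed over a second column, and polyA RNA was sequenced from stranded libraries. The labels name no sort after the beads. The titles number the libraries within each group, and the column names number them on across the groups. Neither states how each library maps to an animal, so p-values measure the spread between libraries.

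DDC, a diethoxycarbonyl dihydrocollidine, blocks ferrochelatase, the enzyme that puts iron into protoporphyrin to make heme. Porphyrin crystals then plug the bile ducts, bile backs up, and cholangiocytes respond by dividing and by secreting signals that draw leukocytes and mesenchymal cells, which is known as the ductular reaction. In the resting duct these cells adjust bile by moving bicarbonate, chloride and water, sense flow with a primary cilium, and take up bile acids and glucose.

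Values are FPKM, reads scaled by gene length and library depth, so levels can be compared between genes. Totals recovered from the values were 49339240 to 72929107 reads per library. The tested quantity was log2(FPKM + 1), which understates fold changes of genes below a few FPKM. A change is given as DDC minus Control on that scale ± SE, and a level as the mean ± SD of the 4 libraries of a group. Genes are said to rise or fall only at a limma adjusted p under 0.05. By that measure 5112 of 15264 genes tested (33.5%) rose and 4869 (31.9%) fell, 65.4% together. A change of 2 times or more was made by 1202 of the rising genes (7.87% of those tested) and 600 of the falling genes (3.93%). The libraries of both groups did not overlap for 9362 genes (61.3%). The counts of list members below are to be read against these shares, and the median log2 difference over all genes tested was 0.00, with quartiles of -0.31 and 0.33. Among the 8 libraries, genes below FPKM 1 in every Control library met the filter only through DDC. Fosl1, Timp1, Bhlhe41, H2-Eb2, Slc4a11 and Psat1 are examples. Others, such as Fat4 and Cldn10, met it only through Control. Counts that hold such genes are not rates for a list. The first principal component of the 8 libraries held 72% of the variance. It placed the Control libraries between -48.8 and -44.3 and the DDC libraries between 37.8 and 50.5, with DDC 1 at the lower value.

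The label was checked on 21 cholangiocyte genes, all of which were present in every library. Their summed level was 11370 to 13870 FPKM in Control and 13550 to 15160 in DDC. Epcam, the gene of the bead target, rose by 0.48 ± 0.08, and the keratin gene Krt7 rose by 0.84 ± 0.08. Spp1, which encodes osteopontin, differed by 0.20 ± 0.20 and Krt19 by -0.06 ± 0.23, neither past the threshold. The estimate for Krt19 turned to 0.13 without Control 1 and 0.02 without Control 3. The duct transcription factor gene Sox9 fell, with a difference of -1.08 ± 0.10. In all, 9 of the 21 markers rose and 8 fell.

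Transcripts of other cells were present, and several moved with the diet. The 20 macrophage markers summed to 190.5 to 214 FPKM in Control and 1583 to 2828 in DDC, with none at 0 in any library, and 16 of 20 rose (median 2.73). Cd68 was 13, 8.30, 7.36 and 7.95 FPKM in Control 1 to 4 and 68.2, 78.0, 81.8 and 126 in DDC 1 to 4, and DDC 4 was the highest. The mannose receptor gene Mrc1 differed by -1.42 ± 0.47, a call that ended without Control 3 (-1.06), Control 4 (-1.21) or DDC 2 (-1.30). The 10 dendritic cell markers summed to 18.6 to 33.6 against 96.2 to 119 FPKM, and 8 of 9 tested rose. Some of the rising dendritic cell and macrophage markers were below FPKM 1 in all Control libraries. Among the 8 libraries these met the filter through DDC, so the 8 of 9 is not a rate for the list. Of 12 neutrophil markers, 4 of 5 tested rose, S100a8 from 0.684 ± 0.683 to 23.6 ± 5.80 FPKM, while the neutrophil genes Ly6g, Mpo and Elane were at or near 0 in all 8 libraries. S100a8 and S100a9 reached FPKM 1 in no Control library except Control 3, and Csf3r in none. Among the 8 libraries these genes met the filter through DDC, so the 4 of 5 is not a rate for the list. The 20 endothelial markers summed to 161 to 672 FPKM in Control and 45.1 to 94.2 in DDC, and 18 fell (median -1.97). Control 3 and Control 4 held the most. The endothelial genes Pecam1 and Cdh5 differed by -1.44 ± 0.43 and -2.01 ± 0.50. The 21 hepatocyte markers summed to 3714 to 4619 FPKM in Control and 1393 to 2095 in DDC, a sum that is mostly Alb, and 5 rose and 5 fell. The 15 B and plasma cell markers summed to 322 to 397 against 204 to 317 FPKM. T and NK cell markers summed to at most 13.8 FPKM in any library. Fibroblast collagens were low throughout: Col1a1 was 0.147, 0.0185, 0.0528 and 0.0522 FPKM in Control 1 to 4 and 0.315, 0.216, 0.488 and 0.804 in DDC 1 to 4. In bulk RNA, fewer cells of a type and less RNA per cell cannot be told apart.

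Some libraries stood apart from their group. The 24 pancreatic acinar genes, such as Cpa1, which encodes a digestive carboxypeptidase, summed to 9905, 2619, 1195 and 11.1 FPKM in Control 1 to 4 and 1263, 7.69, 8.44 and 12.8 in DDC 1 to 4. By limma 0 of the 21 tested passed (0 at an unadjusted p under 0.05, 0 by limma voom), while 20 did without Control 4 and 5 without DDC 1. The 12 gastric mucous genes summed to 11410 FPKM in Control 3 and at most 165.6 in the other 7 libraries. Without Control 1 and Control 3, 4944 genes rose and 4850 fell, counts close to those of the full comparison. That comparison kept Control 2 and DDC 1, which also hold acinar transcripts, so it cannot show how far those transcripts matter.

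**Figure D1:**
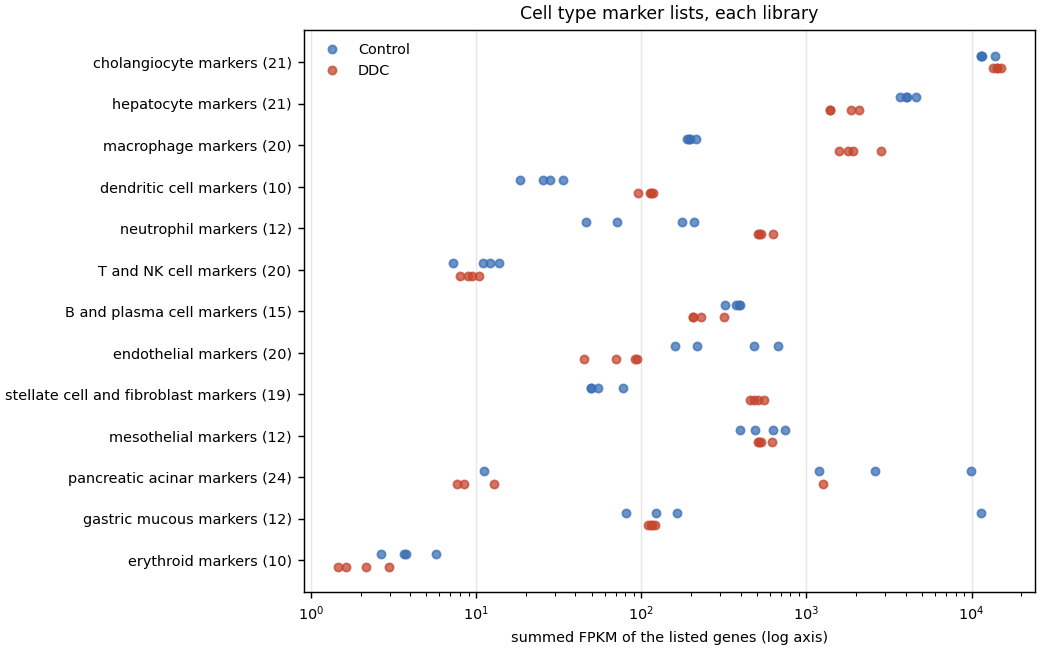
Summed FPKM of each cell type marker list (log axis) in each of the 4 Control and 4 DDC libraries, with the number of genes in brackets. Macrophage and dendritic cell markers are higher in every DDC library than in any Control library, endothelial markers are lower, pancreatic genes are high in Control 1, Control 2, Control 3 and DDC 1, and gastric genes in Control 3.

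The largest rises, ranked after setting aside markers of other cells, covered chemokines, proteases and a cytokine antagonist. Only genes whose groups did not overlap were ranked, here, for the falls and for the amounts of transcript. Separation of the libraries was thus a condition of the choice, not a result. Cpe (mm10 chromosome 8, 64592558 to 64693040), which encodes carboxypeptidase E, trimmer of prohormones, was 0.504, 0.855, 0.969 and 0.905 FPKM in Control 1 to 4 and 42.3, 42.5, 45.7 and 45.5 in DDC 1 to 4. All DDC libraries lay far above all Control libraries (log2 difference 4.64 ± 0.11, limma adjusted p = 7.6e-09). Plat (chromosome 8, 22757744 to 22782847), the gene of tissue plasminogen activator, was 0.578, 0.698, 0.959 and 1.69 FPKM in Control 1 to 4 and 43.4, 41.2, 51.8 and 40.8 in DDC 1 to 4 (log2 difference 4.54 ± 0.16). Both genes were below 2 FPKM in every chow library and above 40 in every library of the diet. Il1rn (chromosome 2, 24336853 to 24351494), which encodes the antagonist that occupies the interleukin 1 receptor, was 4.79, 1.84, 4.61 and 4.73 FPKM in Control 1 to 4 and 79.6, 74.1, 78.9 and 64.9 in DDC 1 to 4 (3.97 ± 0.21). Wfdc18, a gene of a small secreted protein with a WAP domain, was 1.78, 3.23, 15.0 and 3.46 FPKM in Control 1 to 4 and 120.0, 128, 165 and 101 in DDC 1 to 4, and no library of one group reached the other (4.57 ± 0.55). Tgfbi, an extracellular matrix gene induced by TGF beta, rose from 2.35 ± 0.420 to 80.9 ± 10.9 FPKM (4.61 ± 0.34). Cx3cr1, the fractalkine receptor gene, which macrophages express, rose from 0.461 ± 0.117 to 29.9 ± 5.88 FPKM (4.38 ± 0.26). The chemokine genes Ccl2 (7.11 ± 0.18) and Cxcl2 (4.14 ± 0.44) were also among them, as was Gm49339 (4.00 ± 0.41). Exons of Gm49339 overlap Lilr4b and Lilrb4a on the same strand, so its reads could belong to those leukocyte receptor genes. Macrophage markers were 10.2 times as high in DDC on their summed level, and their part in the rises of Cx3cr1, Gm49339 and Tgfbi was not tested.

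The largest falls were in a mixed set of secreted, matrix and metabolic genes. Fmo2 (mm10 chromosome 1, 162874317 to 162898726), a flavin monooxygenase gene, was 124, 139, 119 and 149.5 FPKM in Control 1 to 4 and 11.7, 9.58, 8.09 and 9.14 in DDC 1 to 4 (log2 difference -3.66 ± 0.11, limma adjusted p = 2.6e-08). Lamc3 (chromosome 2, 31887291 to 31946539), the gene of the laminin gamma 3 chain of basement membranes, was 149, 160.3, 102 and 148 FPKM in Control 1 to 4 and 17, 14.8, 9.27 and 14.0 in DDC 1 to 4 (-3.26 ± 0.23). Fxyd1 (chromosome 7, 31051681 to 31055656), which encodes phospholemman, a regulator of the sodium pump, was 98.2, 139, 99.5 and 115 FPKM in Control 1 to 4 and 14.2, 13.3, 8.51 and 9.46 in DDC 1 to 4 (-3.22 ± 0.19). In all DDC libraries these genes were below every Control library and still measurable. Msmp, a gene of a small secreted protein, fell from 13.9 ± 3.05 to 0.218 ± 0.224 FPKM and C2cd4b, which encodes a nuclear protein, from 12.2 ± 2.17 to 0.166 ± 0.0403 FPKM. Pigr (chromosome 1, 130826684 to 130852249), the receptor that carries immunoglobulin A across epithelia into bile, was 442, 234, 446 and 429.8 FPKM in Control 1 to 4 and 33.0, 17.9, 32.6 and 106 in DDC 1 to 4 (-3.27 ± 0.45), with Control 2 the lowest of its group and DDC 4 the highest of its own. Atoh8 (-4.22 ± 0.07), Sfrp5 (-4.21 ± 0.14), Mup3 (-3.39 ± 0.41) and the fatty acid carrier gene Fabp1 (-3.24 ± 0.56) made up the rest. Mup3 belongs to a cluster of near-identical genes, among which reads can be split. Hepatocyte markers were 2.43 times as high in Control on their summed level, which is mostly Alb, while 5 rose and 5 fell. Their part in the falls of Mup3 and Fabp1 was not tested.

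**Figure D2:**
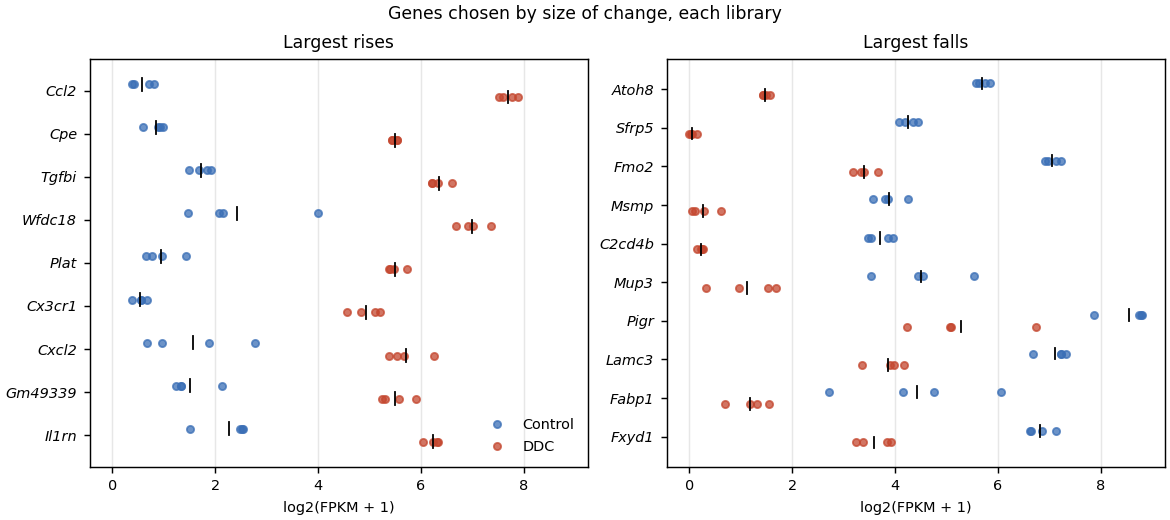
log2(FPKM + 1) of the named genes with the largest rises (left) and falls (right) in each Control and DDC library. Points are libraries and black ticks group means. Groups that do not overlap were a condition for choosing these genes.

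Ranked by the amount of transcript instead, the rises were led by Clu (4451 ± 329.5 FPKM in Control and 6640 ± 192 in DDC), which encodes the secreted chaperone clusterin, Cd74 (471 ± 315 FPKM in Control and 1463 ± 183 in DDC), the MHC class II invariant chain, and Ftl1 (493 ± 56.1 FPKM in Control and 1239 ± 218 in DDC) and Fth1 (890.3 ± 116 FPKM in Control and 1635 ± 106 in DDC), the ferritin subunits that store iron. Gc, the vitamin D binding protein gene better known from hepatocytes, was 45.4, 86.2, 47.2 and 37.9 FPKM in Control 1 to 4 and 811, 806, 821 and 713 in DDC 1 to 4 (3.91 ± 0.21). The hepatocyte markers changed in both directions, with Alb lower (from 2773 ± 302 to 1028 ± 222 FPKM) and Fgb higher (from 3.02 ± 1.84 to 16.3 ± 4.31 FPKM), and the part of hepatocyte RNA in the rise of Gc was not tested. C3, the central complement component, rose from 653 ± 75 to 1338 ± 76.7 FPKM (1.04 ± 0.10). The falls were led by Anxa5 (1773 ± 201 FPKM in Control and 995 ± 72.5 in DDC), an annexin gene, Gas6 (1120 ± 75.2 FPKM in Control and 514 ± 24 in DDC), the ligand of the TAM receptor kinases, and Ces1d (567 ± 69.9 FPKM in Control and 68.8 ± 10.9 in DDC), a carboxylesterase gene. Tm4sf4 (946 ± 109.5 FPKM in Control and 508 ± 24.7 in DDC), a tetraspan membrane protein gene, and Ambp (1166 ± 49.1 FPKM in Control and 754 ± 34.8 in DDC), which encodes alpha 1 microglobulin and bikunin, also fell. Pigr was in this ranking as well. The part of hepatocyte RNA in the falls of Ces1d and Ambp was not tested. The call for Clu ended with quantile normalization, where its log2 difference was 0.09, and with no filter on low genes, where its limma adjusted p was 0.70.

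Genes of protein manufacture rose together by small amounts. Of 84 cytosolic ribosomal protein genes tested, 77 rose (91.7%, against 33.5% of all genes) with a median log2 difference of 0.41, and 0 rose by 2 times or more. Rps19, a small subunit protein gene, rose from 37.2 ± 3.05 to 60.2 ± 1.36 FPKM (0.68 ± 0.06), and Rpl22l1, a variant large subunit protein gene, by 0.59 ± 0.05. Of 38 ribosome biogenesis genes 33 rose (median 0.39), among them Ncl, the nucleolin gene (0.58 ± 0.03), and Ltv1, needed to assemble the small subunit (0.87 ± 0.06). Of 54 initiation factor genes 40 rose and 7 fell, or 4 without Control 2 or DDC 1. The helicase paralogs moved apart: Eif4a1 differed by 1.10 ± 0.05 and Eif4a2 by -0.78 ± 0.06. Of 20 aminoacyl-tRNA synthetase genes 15 rose (median 0.25), such as Vars (0.80 ± 0.05) and Gars (0.55 ± 0.04). All 8 genes of the TRiC chaperonin, which folds actin and tubulin, rose by a median of 0.40, and 35 of 41 proteasome genes rose by a median of 0.36, Psmd14 by 0.76 ± 0.05. Of 78 mitochondrial ribosomal protein genes 29 rose, a share of 37.2% that lies near the background, and with each library rescaled to the same FPKM total 18 rose and 17 fell.

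**Figure D3:**
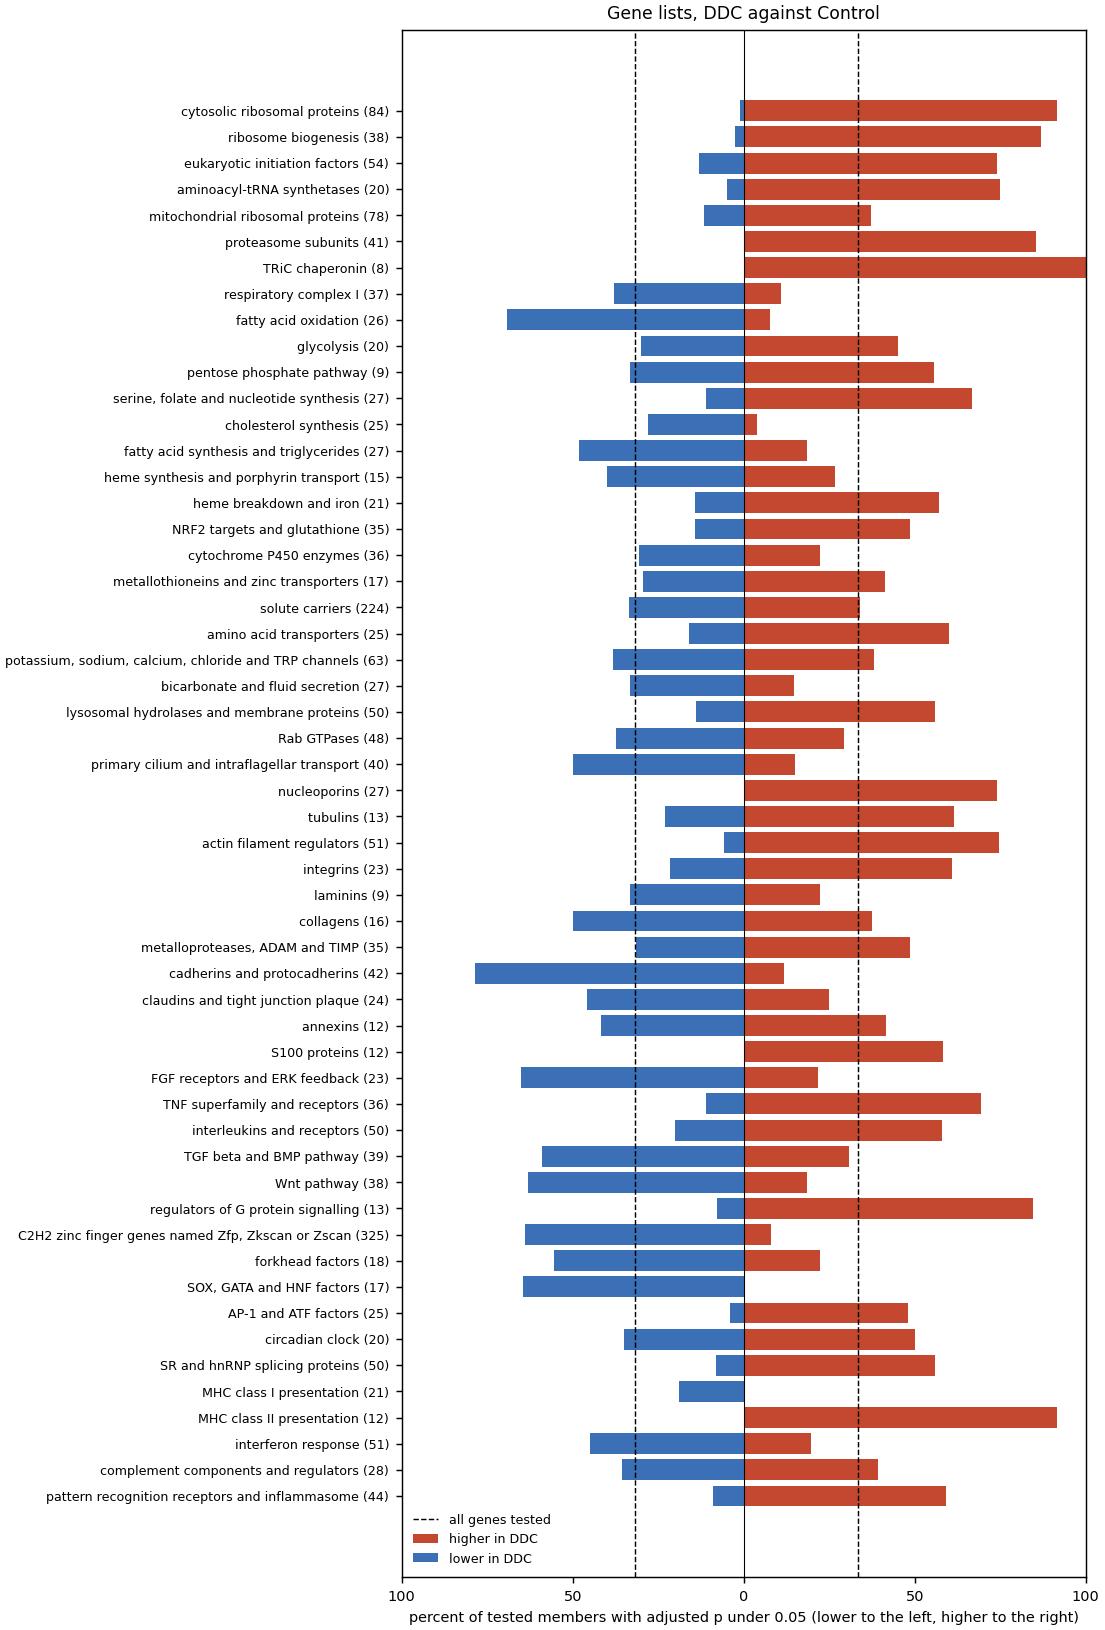
Share of the tested members of each described list that rose (right) or fell (left) in DDC, with the number tested in brackets. Dashed lines mark the shares over all genes tested, 33.5% and 31.9%, and ribosomal protein, proteasome and MHC class II genes lie far to the right of them.

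Most genes of fatty acid oxidation fell, and most genes of serine, folate and nucleotide synthesis rose. Of 37 respiratory complex I genes 14 fell (37.8%, near the 31.9% of all genes) and 4 rose (median -0.12), with 7 rising without Control 3, 2 without Control 2, Control 4 or DDC 3, and 8 rising and 10 falling without Control 1 and Control 3. Of 25 genes of complexes II to IV 6 fell and 2 rose, and of 17 ATP synthase genes 3 fell and 1 rose, with 8 rising in each list and 2 and 0 falling without Control 1 and Control 3. With each library rescaled to the same FPKM total 25 of the complex I genes fell. Of 26 genes of fatty acid oxidation in mitochondria and peroxisomes 18 fell (median -0.29). Acadm, the medium-chain acyl-CoA dehydrogenase gene, was 60.2, 55.2, 52.3 and 56.8 FPKM in Control 1 to 4 and 30.8, 31.2, 30.9 and 31.8 in DDC 1 to 4, with no overlap (-0.83 ± 0.05). Eci1, which handles unsaturated chains, fell by 0.56 on the log2 scale. Acadl, for long chains, rose by 0.47 ± 0.07. Genes of serine, one-carbon and nucleotide synthesis rose, 18 of 27, of which 6 by 2 times or more. Psat1, the phosphoserine aminotransferase gene, was 0.959, 0.936, 0.920 and 0.910 FPKM in Control 1 to 4 and 5.27, 5.45, 6.09 and 5.11 in DDC 1 to 4. Phgdh, which commits glycolytic carbon to serine, was 3.67, 4.66, 4.15 and 3.60 FPKM in Control 1 to 4 and 15.4, 16.3, 17.3 and 14.2 in DDC 1 to 4. The DDC libraries of both genes were all above the Control libraries (1.74 ± 0.08 and 1.75 ± 0.08). The mitochondrial folate genes Mthfd2 (1.32 ± 0.21) and Mthfd1l (1.60 ± 0.08) rose with them, while Aldh1l1, which drains folate-bound carbon in the cytosol, fell from 37.1 ± 2.19 to 13.5 ± 1.93 FPKM. In glycolysis 9 of 20 genes rose and 6 fell, Gapdh by 0.80 ± 0.08 and the lactate transporter gene Slc16a1 by 0.67 ± 0.10 among the former, Ldhb (-0.39 ± 0.04) among the latter. In the pentose phosphate pathway 5 of 9 genes rose and 3 fell (33.3%, near the 31.9% of all genes). The risers were Pgd, Taldo1, Tkt, Pgls and G6pdx, by 0.44 to 0.92.

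In both lists of lipid synthesis genes more members fell than rose. Of 25 cholesterol synthesis and uptake genes 1 rose and 7 fell (28.0%, below the 31.9% of all genes, median -0.45), and the falls ranged from 3 to 4 when any 1 of the 8 libraries was left out, were 1 without Control 1 and Control 3 and were 16 with the 8 libraries fitted alone. Tm7sf2, a sterol reductase gene, fell by 0.81 on the log2 scale. Of 27 genes of fatty acid and triglyceride synthesis 13 fell (48.1%) and 5 rose, with Acsl1, which activates fatty acids, at -0.84 ± 0.08 and Acacb, an acetyl-CoA carboxylase gene, at -0.80 ± 0.08.

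Most heme breakdown and iron genes rose, and the gene of the enzyme that DDC blocks did not pass. Fech, the ferrochelatase gene, was 30.2, 31.5, 31.4 and 30.0 FPKM in Control 1 to 4 and 33.5, 31.5, 31.0 and 31.7 in DDC 1 to 4 (0.05 ± 0.07). Alas1, the rate-limiting first enzyme, was 13.7, 10.3, 13.5 and 10.3 FPKM in Control 1 to 4 and 9.77, 9.03, 9.74 and 10.9 in DDC 1 to 4 (-0.24 ± 0.10, limma adjusted p = 0.046), a call that ended without Control 1 (-0.18), Control 3 (-0.19), DDC 1 (-0.24), DDC 2 (-0.21) or DDC 3 (-0.24). Uros and Cpox, later enzymes of the pathway, fell by 0.56 and 0.63 on the log2 scale. Of 15 heme synthesis and porphyrin transport genes 4 rose and 6 fell. Among the risers was Abcg2, an exporter of porphyrins (0.58 ± 0.11). Of 21 heme breakdown and iron genes 12 rose, 7 by 2 times or more (median 0.57). Hmox1 (chromosome 8, 75093591 to 75100596), which encodes the heme oxygenase that opens the heme ring, was 5.05, 5.13, 5.78 and 4.61 FPKM in Control 1 to 4 and 57, 65.3, 76.5 and 93.6 in DDC 1 to 4. Its lowest DDC library was several times its highest Control library (3.57 ± 0.49). The plasma scavengers of hemoglobin and heme rose too. Hp, haptoglobin, was 12.8, 22.2, 8.56 and 6.79 FPKM in Control 1 to 4 and 192, 168, 171 and 144 in DDC 1 to 4 (3.77 ± 0.29), and Hpx, hemopexin, rose from 8.75 ± 4.54 to 60.3 ± 24.7 FPKM. These are known as hepatocyte products. Of 21 hepatocyte markers 5 rose, among them the fibrinogen chain gene Fgb (by 2.18 ± 0.30), and 5 fell, with a median of -0.04, and the part of hepatocyte RNA in these rises was not tested. Steap4, a reductase that readies iron for uptake, rose from 1.23 ± 0.532 to 14.0 ± 2.15 FPKM. Lcn2, which binds iron-loaded bacterial siderophores, rose from 66.6 ± 27.0 to 477 ± 48.3 FPKM. On the import side the transferrin receptor gene Tfrc rose by 1.02 ± 0.10, while the metal importer gene Slc39a8 fell from 5.66 ± 1.37 to 1.55 ± 0.237 FPKM. Hmox1 and the ferritin genes are also active in macrophages, whose markers rose, and the part of macrophages in their rise was not tested. The metal-binding metallothionein genes Mt1 and Mt2 rose by 1.49 ± 0.24 and 2.27 ± 0.33.

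More genes of oxidant defence rose than fell. Of 35 genes known as targets of the NRF2 factor or as glutathione enzymes 17 rose (48.6%, against 33.5% of all genes) and 5 fell (14.3%, against 31.9%). Among the risers, Txnrd1 rose by 0.78 ± 0.09, Srxn1 by 0.87 ± 0.15 and Gpx3, a secreted glutathione peroxidase, by 1.90 ± 0.14. The glutathione transferase gene Gstm1 fell from 290.2 ± 9.04 to 152 ± 15.4 FPKM. Nqo1, the textbook NRF2 target, was 2.23, 3.28, 15.8 and 2.99 FPKM in Control 1 to 4 and 2.64, 1.54, 2.19 and 2.14 in DDC 1 to 4 and did not pass. Of 36 cytochrome P450 genes 8 rose and 11 fell. In the Cyp4f cluster, whose enzymes oxidise fatty acids and leukotrienes, Cyp4f14 fell by 2.18 and Cyp4f15 by 1.32 on the log2 scale, while Cyp4f18, known from neutrophils and dendritic cells, rose by 3.27 ± 0.26. These neighbouring genes are similar in sequence, so reads can be split between them.

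**Figure D4:**
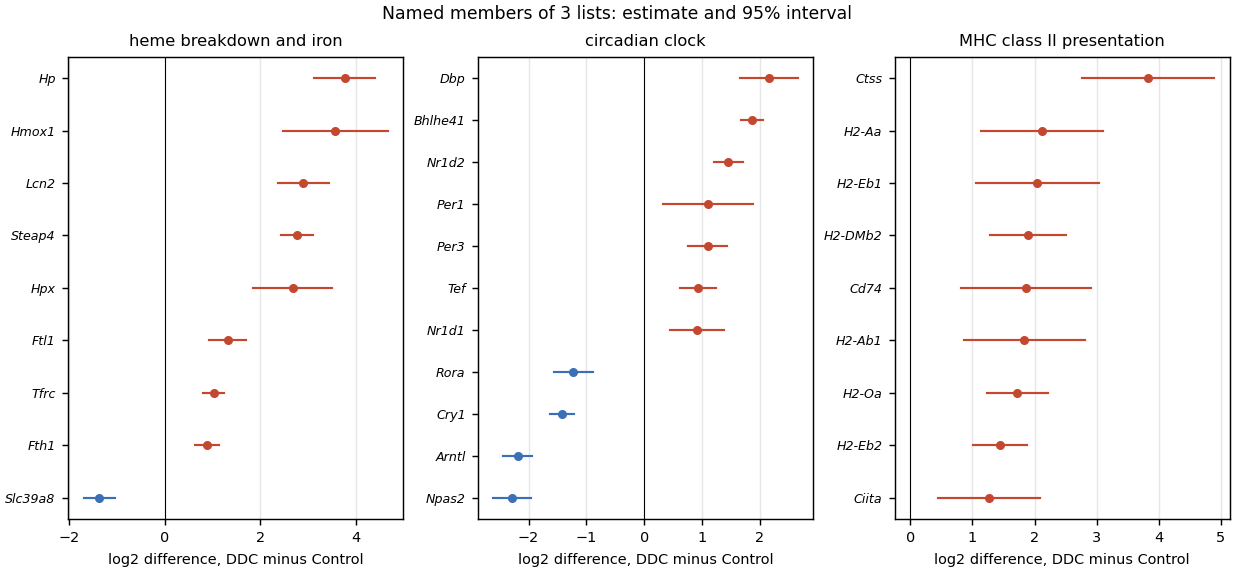
log2 difference with its 95% interval for the members named here of the heme breakdown and iron, circadian clock and MHC class II lists. Red members rose and blue fell, and members not named in the text, among them those that did not pass, are not plotted. Hp and Hmox1, Dbp and Npas2, and Ctss sit at the extremes.

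Transport genes as a whole followed the background, 76 of 224 solute carriers up (33.9%) and 75 down (33.5%), but amino acid importers leaned upward. Of 25 amino acid transporter genes 15 rose and 4 fell (median 0.37). Slc7a6, a carrier of cationic and neutral amino acids, rose from 4.60 ± 0.556 to 11 ± 0.586 FPKM and Slc43a2, a carrier of large neutral ones, from 28.6 ± 2.47 to 63.9 ± 4.86 FPKM. Slc38a7, a glutamine carrier gene, fell by 0.35 on the log2 scale. The rising solute carriers with the smallest p were Slc4a11, a member of the bicarbonate transporter family, which was 0.191, 0.568, 0.179 and 0.197 FPKM in Control 1 to 4 and 13.6, 13.7, 12.0 and 13.4 in DDC 1 to 4, and Slc16a6 (1.97 ± 0.09), whereas Slc45a3 fell from 52.2 ± 8.88 to 12.4 ± 0.805 FPKM. Duct secretion genes changed member by member. Aqp1, the water channel of the bile duct, was 112, 76.7, 286 and 157 FPKM in Control 1 to 4 and 34.3, 10.1, 20.6 and 47.6 in DDC 1 to 4 (-2.48 ± 0.53). Every DDC library was below every Control library, and Control 3 was the highest for Aqp1 as for the endothelial markers. Aqp1 is also an endothelial gene, endothelial markers were 5.06 times as high in Control on their summed level, and their part in its fall was not tested. Slc12a2, the chloride loader of secretory epithelia, rose from 12.8 ± 6.12 to 40.1 ± 3.33 FPKM and Cftr, the apical chloride channel, by 0.94 ± 0.28. The groups overlapped for Cftr, with Control 3 (25.9 FPKM) above DDC 3 (24.4) and DDC 4 (21.4). The adenylyl cyclase genes Adcy6 and Adcy9, which make the cyclic AMP that opens this channel, fell by 0.74 and 0.86 on the log2 scale. Of the 27 genes of this list 4 rose and 9 fell, with 7 rising without Control 1 and Control 3. Of 63 ion channel genes 24 rose and 24 fell. P2rx2, an ATP-gated channel gene, rose from 1.69 ± 0.635 to 17.6 ± 1.95 FPKM, and Kcne3, a potassium channel subunit gene, fell from 158 ± 8.63 to 82.3 ± 3.85 FPKM.

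More lysosomal and nuclear pore genes rose than fell, and more genes of the cilium fell than rose. Of 50 lysosomal genes 28 rose and 7 fell, 9 of them rising by 2 times or more. The protease genes Ctsh and Ctsd rose by 1.58 ± 0.09 and 1.52 ± 0.17, and Gusb, the glucuronidase gene, by 1.53 ± 0.08, while Ctsf, another cathepsin gene, fell by 1.18 on the log2 scale. Macrophage markers moved in the same direction, and their part in the lysosomal rise was not tested. Of 27 nucleoporin genes 20 rose (median 0.31), Nup93 by 1.42 ± 0.07 and Nup210 by 0.95 ± 0.06. Of 40 genes of the primary cilium and its transport trains 20 fell and 6 rose, or 10 without Control 2. The intraflagellar transport gene Ift172 fell by 0.78 and Bbs2, of the Bardet-Biedl complex, by 0.78 on the log2 scale. Among 48 Rab trafficking genes 14 rose and 18 fell, led by Rab27b, a secretory granule GTPase gene, which fell from 35.5 ± 3.38 to 9.91 ± 0.477 FPKM.

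Most actin and tubulin genes that were measured rose. Of 51 actin filament regulator genes 38 rose, 15 by 2 times or more (median 0.74). The tropomyosin genes Tpm1 and Tpm3, whose products stabilise filaments, rose by 1.48 ± 0.08 and 0.76 ± 0.04, and Tmod1, which caps the slow-growing end, fell from 12.9 ± 1.84 to 2.77 ± 0.459 FPKM. Of 13 tubulin genes 8 rose and 3 fell. Tubb6 was 3.72, 4.87, 3.35 and 3.38 FPKM in Control 1 to 4 and 30.5, 33.5, 30.6 and 32.0 in DDC 1 to 4, so every DDC library held several times any Control library (2.77 ± 0.14). Tubb2b rose from 12.0 ± 1.33 to 43.2 ± 3.95 FPKM and Tubb4a fell from 4.20 ± 0.932 to 1.29 ± 0.157 FPKM. Of 12 S100 genes, small calcium-binding proteins, 7 rose, S100a11 from 313 ± 31.3 to 832 ± 83.4 FPKM. S100a8 and S100a9, which are also neutrophil markers, were in that count. The annexins divided, with Anxa3 (0.91 ± 0.11) and Anxa2 (0.87 ± 0.11) rising beside the fall of Anxa5 and of Anxa13 (-0.59 ± 0.05).

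Adhesion and matrix families changed in both directions, except for the cadherins, most of which fell. Of 42 cadherin and protocadherin genes 33 fell (78.6%, against 31.9% of all genes; median -0.32), including Fat4, a giant cadherin gene of planar polarity, which fell from 2.22 ± 0.462 to 0.200 ± 0.0658 FPKM, and the desmosomal gene Dsg1b (difference -1.43 ± 0.16). Cdh24 rose by 0.82 ± 0.07. Among 23 integrins 14 rose and 5 fell. Itga2, the collagen-binding alpha 2 chain, was 1.14, 1.38, 2.15 and 1.65 FPKM in Control 1 to 4 and 32.9, 32.7, 34.6 and 29.4 in DDC 1 to 4 (3.71 ± 0.12). The chain was near 1 to 3 FPKM in all chow libraries and above 25 in all DDC libraries. Itgav, a partner in the receptors that activate TGF beta, rose from 16.1 ± 1.97 to 57.6 ± 4.57 FPKM, and Itga9 fell from 29.4 ± 4.28 to 8.70 ± 1.04 FPKM. Several other risers, such as Itgam and Itgb2, are leukocyte chains. Of 9 laminin chains, Lamb3 was 7.96, 8.83, 10.1 and 10.1 FPKM in Control 1 to 4 and 43.6, 43.8, 45.5 and 36.1 in DDC 1 to 4 (2.08 ± 0.09) while Lamb2 fell from 69.2 ± 9.45 to 28.1 ± 2.15 FPKM beside Lamc3. Of 16 collagens 6 rose and 8 fell. Col16a1 rose from 8.76 ± 1.19 to 20.5 ± 1.02 FPKM and Col27a1 fell from 20.4 ± 4.02 to 6.71 ± 0.0754 FPKM, and the basement membrane pair Col4a1 (0.68 ± 0.08) and Col4a2 (0.56 ± 0.07) rose as Col4a3 (-0.64 ± 0.12) and Col4a4 (-0.56 ± 0.11) fell. Of 24 claudins and junction plaque genes 6 rose and 11 fell, with Cldn4 higher (from 33.9 ± 6.12 to 245 ± 31.2 FPKM) and Cldn8 and Cldn10 lower (-1.14 ± 0.05 and -2.23 ± 0.11). Of 35 metalloproteases, ADAM genes and their inhibitors 17 rose and 11 fell. Timp1, an inhibitor of matrix proteases, was 0.543, 0.604, 0.731 and 0.536 FPKM in Control 1 to 4 and 16.9, 17.7, 22.1 and 15.5 in DDC 1 to 4, and Adam33 fell from 63.7 ± 15.6 to 9.04 ± 1.19 FPKM. Endothelial markers were lower in DDC, and their part in the falls of Itga9 and Cldn10 was not tested.

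TNF, interleukin and RGS genes mostly rose, and FGF, BMP and Wnt genes mostly fell. Of 36 TNF superfamily ligands and receptors 25 rose, 13 by 2 times or more (median 0.61). Tnfrsf12a, the receptor of the cytokine TWEAK, rose from 78.2 ± 9.84 to 184 ± 10.2 FPKM, the death receptor gene Tnfrsf10b by 1.02 ± 0.07, and Tnfrsf19 fell by 1.74 on the log2 scale. Of 50 interleukin and receptor genes 29 rose, 23 by 2 times or more, and 10 fell. Il34, a ligand of the macrophage receptor CSF1R, rose from 4.05 ± 0.588 to 16.8 ± 1.33 FPKM, and Il11ra1 fell by 0.82 on that scale. The interleukin list holds Csf1r and Csf3r, markers of macrophages and neutrophils. Macrophage markers were 10.2 times and neutrophil markers 4.35 times as high in DDC on their summed levels, and their part in the TNF and interleukin rises was not tested. Most of the neutrophil sum in DDC, 507 to 624 FPKM, was Lcn2, at 440 to 548 FPKM. Lcn2 was 38.2 to 101 FPKM in Control. Of 13 regulators of G protein signalling 11 rose. Rgs5 was 34.3, 57.6, 30.9 and 27.3 FPKM in Control 1 to 4 and 500.3, 463, 431 and 414 in DDC 1 to 4, the largest of them on the log2 scale (3.61 ± 0.20). Rgs5 is also known from pericytes. Of the 19 stellate cell and fibroblast markers 7 were tested, of which 3 rose and 1 fell. The risers were Rgs5 itself, Cspg4 (from 0.798 ± 0.273 to 2.95 ± 0.411 FPKM) and Mcam (from 12.2 ± 3.00 to 32.4 ± 3.52 FPKM). The smooth muscle gene Tagln was 1.58, 1.11, 1.70 and 1.71 FPKM in Control 1 to 4 and 4.80, 3.02, 5.49 and 3.74 in DDC 1 to 4, with no overlap. It did not pass with 11 libraries in the model and passed with array weights or with the 8 libraries fitted alone. Pdgfrb was 0.0316 to 0.178 FPKM in all 8 libraries. The part of such cells in the rise of Rgs5 was not tested. Of 23 FGF receptor and ERK feedback genes 15 fell, Spred1 by 0.62 and Fgfr3 by 1.00 on the log2 scale, although Dusp5 rose by 0.95 ± 0.12. Of 39 genes of the TGF beta and BMP pathway 23 fell and 12 rose, with the inhibitory Smad6 at -1.38 ± 0.10 and the latent TGF beta binding gene Ltbp2 at 3.65 ± 0.17. Of 38 Wnt pathway genes 24 fell and 7 rose, the ligand gene Wnt4 at -0.97 ± 0.09 and the nuclear effector gene Tcf7 at 1.30 ± 0.08.

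In the zinc finger, forkhead and SOX, GATA and HNF families more genes fell than rose. Of 325 C2H2 zinc finger genes named Zfp, Zkscan or Zscan, most of them DNA-binding repressors, 208 fell (64.0%, against 31.9% of all genes) and 26 rose. Their median was -0.26, and 1 fell by 2 times or more. Zfp395 was the first by p (-1.07 ± 0.07), and Zfp367 rose by 0.97 ± 0.07. Of 17 SOX, GATA and HNF genes 11 fell (median -0.80) and 0 rose, by limma on log2 values, by limma voom on reads and at an unadjusted p under 0.05. Gata4 (-1.93 ± 0.45) and Sox18 (-1.90 ± 0.42) had the most negative differences. Both are also known from endothelial cells, whose markers were lower in DDC, and the part of endothelial RNA was not tested. Gata6, of foregut epithelium, fell from 49.7 ± 1.67 to 30.9 ± 2.26 FPKM. Of 18 forkhead genes 10 fell, Foxa2 by 0.95 on the log2 scale, and Foxm1, a factor of dividing cells, rose by 2.12 ± 0.13. Of 25 AP-1 and ATF genes 12 rose, Fosl1 from 0.114 ± 0.0433 to 2.62 ± 0.387 FPKM. Among the 8 libraries Fosl1 met the filter only through DDC. In RNA processing 28 of 50 SR and hnRNP splicing genes rose, or 17 with each library rescaled to the same FPKM total, Hnrnpab by 0.77 ± 0.05.

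Circadian clock genes changed in opposite directions, most of them by 2 times or more. The positive arm of the clock pairs ARNTL with CLOCK or NPAS2 on E boxes (CACGTG, a palindrome that reads the same on both strands), and its negative arm is made of the PER, CRY, REV-ERB and DEC proteins. Of 20 genes 10 rose and 7 fell, 11 of the 17 by 2 times or more. Arntl was 26.8, 29.0, 26.9 and 30.1 FPKM in Control 1 to 4 and 5.62, 6.21, 6.17 and 3.92 in DDC 1 to 4 (-2.19 ± 0.11). Npas2 was 13.4, 12.3, 11.7 and 14.5 FPKM in Control 1 to 4 and 1.47, 2.37, 2.51 and 1.33 in DDC 1 to 4 (-2.28 ± 0.14). All DDC libraries were below all Control libraries for both. Rora and Cry1 fell with them by 1.23 and 1.42 on the log2 scale. Dbp, an output factor of the clock, was 4.39, 2.02, 3.24 and 2.00 FPKM in Control 1 to 4 and 20.4, 12.2, 12.5 and 20.5 in DDC 1 to 4 (2.16 ± 0.22). Nr1d2, the REV-ERB beta gene, rose from 7.16 ± 0.382 to 21.6 ± 3.11 FPKM, Bhlhe41, which encodes DEC2, from 0.105 ± 0.0501 to 3.02 ± 0.234 FPKM, and Per3 by 1.10 ± 0.15. Per1 rose by 1.10 ± 0.35, a call that ended without Control 1 and Control 3 (0.62). Nr1d1 (0.91 ± 0.21) overlaps Thra on the opposite strand. The mice were kept on a light cycle, with the time of day of collection not given in the sources used here. Promoter entries from RefSeq (GRCm38.p6, the patched mm10 assembly) matched 16 of the 20 genes. An E box lay within 250 bases before the start in 4 of the 16 (25%). Over the 10440 tested genes with an entry, of 15236 symbols, 870 (8.3%) held one, and with under 80% covered the shares are not compared. The promoters shown are those with an E box and the smallest p among the clock genes that rose or fell. Bhlhe41 and Tef rose while Cry1 fell. The starts used for Bhlhe41 and Tef lie 138 and 252 bases from the end of their gene models. The box is in capitals, 153, 60 and 127 bases before the start in the order shown.
Bhlhe41 (chr6:145865421-145865670, minus strand): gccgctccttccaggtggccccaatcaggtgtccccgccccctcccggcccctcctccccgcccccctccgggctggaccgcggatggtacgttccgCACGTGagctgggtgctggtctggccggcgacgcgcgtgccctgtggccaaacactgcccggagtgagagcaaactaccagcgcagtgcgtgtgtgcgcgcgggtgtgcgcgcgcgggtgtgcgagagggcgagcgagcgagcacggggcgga
Cry1 (chr10:85185055-85185304, minus strand): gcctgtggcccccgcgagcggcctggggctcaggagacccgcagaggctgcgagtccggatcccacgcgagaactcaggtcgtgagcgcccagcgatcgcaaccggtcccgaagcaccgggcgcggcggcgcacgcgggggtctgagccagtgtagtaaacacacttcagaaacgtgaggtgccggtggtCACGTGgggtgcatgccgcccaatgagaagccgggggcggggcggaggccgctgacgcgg
Tef (chr15:81802423-81802672, plus strand): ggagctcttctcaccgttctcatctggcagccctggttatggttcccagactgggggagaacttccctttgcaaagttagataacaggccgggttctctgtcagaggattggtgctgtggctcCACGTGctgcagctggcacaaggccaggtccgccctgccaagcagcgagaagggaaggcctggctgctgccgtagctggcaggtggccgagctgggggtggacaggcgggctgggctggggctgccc

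Genes of MHC class II presentation rose nearly as a block. These molecules show peptides from engulfed proteins to helper T cells, and macrophages, dendritic cells and B cells express them most. Of 12 genes 11 rose, 10 by 2 times or more (median 1.83). The Control libraries differed widely. The 12 genes summed to 1887, 990, 776 and 408 FPKM in Control 1 to 4 and 3073 to 3988 in DDC. The chain genes H2-Aa, H2-Ab1 and H2-Eb1 rose by 2.12 ± 0.44, 1.84 ± 0.44 and 2.04 ± 0.45. For H2-Ab1 the difference was 2.18 without Control 1 and 1.46 without Control 4. H2-Oa, which restrains peptide loading, was 3.90, 3.87, 2.81 and 2.16 FPKM in Control 1 to 4 and 11.1, 13.1, 14.6 and 11.9 in DDC 1 to 4, and H2-Eb2, a second beta chain gene, rose from 0.377 ± 0.208 to 2.74 ± 0.477 FPKM. Ctss, the protease that trims the invariant chain, was 35.7, 28.2, 27.9 and 16.6 FPKM in Control 1 to 4 and 322, 389, 352 and 502 in DDC 1 to 4 (3.83 ± 0.48). Ciita, the coactivator of the whole set, rose from 5.31 ± 3.36 to 12.8 ± 1.66 FPKM, with Control 1 at 10.1 close to DDC 1 at 10.6. Macrophage markers were 10.2 times and dendritic cell markers 4.18 times as high in DDC on their summed levels, and their part in this rise was not tested. The H2 genes lie in a cluster of related sequences, so reads can be split among them. The promoters below are shown because class II genes share an upstream block with a CCAAT box, the site of the NF-Y factor. CCAAT, or ATTGG on the other strand, was found within 250 bases before the start in 8 of 9 matched members and in 3773 of 10440 promoters (36.1%). Only 9 of the 12 members and 10440 of 15236 tested symbols had an entry, under 80%, so no comparison of these shares is made. The motif is in capitals, 43, 100 and 90 bases before the start in the order shown, and the start used for H2-DMb2 lies 1942 bases inside its gene model.
H2-Oa (chr17:34092129-34092378, plus strand): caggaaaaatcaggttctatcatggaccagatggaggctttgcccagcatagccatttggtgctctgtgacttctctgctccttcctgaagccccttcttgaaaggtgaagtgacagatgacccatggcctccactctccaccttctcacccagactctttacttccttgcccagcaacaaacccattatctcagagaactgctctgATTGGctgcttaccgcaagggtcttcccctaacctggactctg
H2-Eb2 (chr17:34325425-34325674, plus strand): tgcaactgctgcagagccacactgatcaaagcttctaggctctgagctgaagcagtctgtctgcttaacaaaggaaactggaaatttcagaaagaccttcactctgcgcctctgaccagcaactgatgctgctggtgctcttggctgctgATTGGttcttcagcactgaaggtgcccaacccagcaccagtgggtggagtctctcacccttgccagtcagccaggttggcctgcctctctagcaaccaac
H2-DMb2 (chr17:34144999-34145248, plus strand): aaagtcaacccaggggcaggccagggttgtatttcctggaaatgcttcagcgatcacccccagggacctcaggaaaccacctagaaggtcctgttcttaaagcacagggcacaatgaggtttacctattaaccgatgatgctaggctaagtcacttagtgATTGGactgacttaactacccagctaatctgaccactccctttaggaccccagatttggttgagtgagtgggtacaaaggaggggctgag

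Most interferon response genes that changed were lower. Of 51 tested 23 fell and 10 rose (median -0.28). The immunity-related GTPase gene Iigp1, which attacks the vacuoles of intracellular parasites, was 111, 20.1, 46.2 and 12.1 FPKM in Control 1 to 4 and 4.27, 2.72, 3.31 and 3.12 in DDC 1 to 4 (-3.01 ± 0.55). Its relatives Igtp and Irgm2 fell from 55.8 ± 44.8 to 10.9 ± 0.726 FPKM and from 60.0 ± 42.8 to 11.3 ± 0.205 FPKM. Control 1 was the highest for each of these genes, and without it the log2 differences were -2.45 for Iigp1, -1.47 for Igtp against -1.94 with it, and -1.64 for Irgm2 against -2.05. Igtp and Irgm2 share exon sequence on the same strand, so their values are not separate observations. Ifi27, another interferon-induced gene, fell by 1.06 on the log2 scale. The risers included Irf5 (from 5.52 ± 1.32 to 30.1 ± 3.53 FPKM) and Irf8 (from 2.85 ± 0.981 to 12.1 ± 2.17 FPKM), which myeloid cells express. Among 21 MHC class I presentation genes 4 fell, H2-T23 among them (-0.94 ± 0.17), and 9 did without Control 4, while 3 rose without Control 1. Of 44 pattern recognition and inflammasome genes 26 rose, 14 by 2 times or more, led by Cd14, the lipopolysaccharide co-receptor gene (from 59.5 ± 8.88 to 256 ± 29.1 FPKM). Of 28 complement components and regulators 11 rose and 10 fell. The C1q chain genes C1qa, C1qb and C1qc, active in macrophages, rose by 3.80 ± 0.52, 4.16 ± 0.52 and 3.68 ± 0.52, and Cfb, of the alternative pathway, rose from 78.3 ± 9.34 to 178 ± 12.0 FPKM. Complement regulators went both ways. The cell surface inhibitor genes Cd55 and Cd59a fell from 13.2 ± 8.88 to 2.47 ± 0.954 FPKM and from 31.0 ± 3.88 to 14.4 ± 0.626 FPKM, and Vtn, vitronectin, an inhibitor in fluid, from 110.0 ± 36.1 to 15.0 ± 5.23 FPKM, while Clu, whose product also restrains complement in fluid and counts in this list, rose as given above. The part of macrophage RNA in the Irf5, Irf8, Cd14 and C1q rises was not tested. Cd55 was 5.31, 6.43, 23.8 and 17.1 FPKM in Control 1 to 4, highest in Control 3 and Control 4 as endothelial markers were. The part of endothelial RNA in the fall of Cd55, and of hepatocyte RNA in that of Vtn, was not tested.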

How the data were processed

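RNA of EpCAM bead-selected liver cells was sequenced in 11 libraries, 4 Control, 4 DDC and 3 after recovery, with a stranded mRNA kit, per the labels' protocols. The authors deposited FPKM per gene for every library in 1 table with gene lengths and coordinates. The build, mm10, is named in the submitters' processing notes, with the aligner, the counter and its strand setting not given in the sources used here. FPKM times gene length, divided by its smallest step in a library, gave whole reads within 0.001 for 100.0% of values, used for depth and for 1 alternative. At FPKM 1 the median gene held 86 to 156 reads per library, which limits precision mainly below that level.

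Genes with FPKM of 1 or more in at least 3 of the 11 libraries were fitted on log2(FPKM + 1) with limma 3.58.1 in R 4.3.3, with the 3 groups in 1 model and trended empirical Bayes variances. The contrast was DDC minus Control, with 2-sided p-values, Benjamini-Hochberg adjustment across every gene tested and a threshold of 0.05. The fit was tested on simulated data. The libraries, the 97 gene lists and the naming rule were chosen with earlier results of these data known. The rule took the 10 largest log2 rises and falls and the 6 largest in FPKM, among protein-coding genes with FPKM of 5 or more in the higher group, groups that do not overlap, and no immunoglobulin segment or marker of other cells. It also took up to 3 members of smallest p per list and the first markers of each cell list, for some of which only sums are given. Results for some genes that the rule takes are not reported here. Further members were named after their values were seen. Symbols that matched a family's pattern without belonging to it (Nupr1, Nupr1l, Nupr2, Itgb1bp1, Itgb1bp2, Itgb3bp, S100pbp and Zfp36) were removed after values were seen. Of the genes named in the results, 68 have an exon that overlaps an exon of another gene in GENCODE M21, 53 of them on the opposite strand, and reads of such pairs may not be told apart.

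Alternatives were pseudocounts of 0.1 and 5, no filter, a filter at FPKM 5, 3 scalings, limma voom on whole reads, the 8 libraries alone, array weights, a replicate block and left-out libraries.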

Additional observations from a re-analysis of the deposited data

Results flagged for a closer look

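In 26 of 418 groups of 4 libraries of the named genes, 1 library stood apart from the other 3 by Dixon's criterion at the 95% level, a gap large for the group's range, and chance alone marks about 1 group in 20. The values below are FPKM.

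Control 2 stood apart 7 times and DDC 4 as often. In Control 2 the lipopolysaccharide co-receptor gene Cd14 was at 46.2, the interleukin 1 antagonist gene Il1rn at 1.84 and the immunoglobulin transporter gene Pigr at 234, each the lowest of its group. The cathepsin gene Ctsf (25.2), the peroxidase gene Gpx3 (3.38), the ATP-gated channel gene P2rx2 (2.63) and Slc4a11 (0.568) were the highest of their group there. DDC 4 held the highest Ctsd (665.9) and Pigr (106) of the DDC libraries. It held the lowest Gars (44.7) and Vars (41.7), both tRNA synthetase genes, Gata6 (27.6), Gc (713) and Tubb2b (37.3).

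In Control 1 the macrophage gene Cd68 (13), Gm49339 (3.36) and Tm4sf4 (1110) were highest and Smad6 (12.5) was lowest. In Control 3 Nqo1 (15.8), Wfdc18 (15.0) and Pgls (8.20) were highest. DDC 1 held the acinar gene Cpa1 at 64.6 while the other DDC libraries are listed at 0, the highest Cldn10 (0.381) and the lowest G6pdx (36.9). DDC 3 had the highest Krt19 (481.0) and the lowest Slc4a11 (12.0).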

How the results depend on the processing

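Each of the 20 alternatives left the counts of rising and falling genes within 1.5 times of 5112 and 4869. The counts at 2 times or more, 1202 and 600, were 506 higher and 244 lower with a pseudocount of 5, 963 lower with a pseudocount of 0.1 and 979 lower with limma voom on the reads. With each library rescaled to the same FPKM total 4162 genes rose and 5518 fell, and the median over all genes moved from 0.0029 to -0.0712. Over the 8 libraries left out in turn, 4749 to 5112 genes rose and 4453 to 4803 fell, with 1166 to 1255 and 568 to 651 at 2 times or more. With the replicate block 4969 genes rose and 4701 fell, 1203 and 595 of them by 2 times or more. Same-numbered Control and DDC libraries deviated together with correlations of 0.30, 0.18, -0.02 and 0.25. Since 1 of the 4 was under 0.1, the numbers were not taken as pairs, and Control 2, 3 and 4 each correlated best with another number. The column names share no number between Control and DDC libraries.

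Of the 209 named genes, 207 kept their direction under every alternative and 201 also their call. Krt19 turned from -0.06 to 0.05 with array weights, 0.35 without Control 1 and Control 3, 0.13 without Control 1 and 0.02 without Control 3, and ranged from -0.26 to 0.13 over the libraries left out in turn. Fech turned from 0.05 to -0.04 with each library rescaled to the same FPKM total. Neither gene passed the limma threshold under any of these, and the cause was not tested. The call for Alas1 ended under 10 alternatives, with the replicate block at -0.24 (limma adjusted p = 0.073), and that for Per1 also ended with array weights (log2 difference 0.72). The list counts moved by over 1.5 times in 212 of 3880 comparisons with an alternative.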
